A study of Homo sapiens with 10 samples.

Results

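Condensin and cohesin are the ring-shaped protein complexes that shape chromosomes, and the 10 genes described here encode the 8 subunits of the condensin complexes (SMC2, SMC4, NCAPD2, NCAPG, NCAPH, NCAPD3, NCAPG2 and NCAPH2) together with SMC1A and SMC3, the SMC subunits of cohesin. They were taken by gene symbol, and all 10 were found among the 11258 transcripts listed for both assays. All 10 were also among the 7015 tested genes, those with a value of 5 FPKM or more somewhere in each of the assays, over which counts and medians of all genes are given. FPKM is a read number scaled to transcript length and library size. In the tables' Ensembl gene identifiers the members are SMC2 (ENSG00000136824), SMC4 (ENSG00000113810), NCAPD2 (ENSG00000010292), NCAPG (ENSG00000109805), NCAPH (ENSG00000121152), NCAPD3 (ENSG00000151503), NCAPG2 (ENSG00000146918), NCAPH2 (ENSG00000025770), SMC1A (ENSG00000072501) and SMC3 (ENSG00000108055). Their transcripts, as recovered from the values, ranged from 1996 nt (NCAPH2) to 9784 nt (SMC1A).

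The cells were BJ cells, human fibroblasts that carry hTERT, the catalytic subunit of telomerase, as an immortalising transgene. They received nutlin-3a, a small molecule that keeps MDM2 from binding p53, for 2, 4, 6 or 19 h, and the control was not treated. RNA-Seq of poly(A) RNA and Ribo-Seq, which reads the mRNA fragments that ribosomes cover, were each made once per condition, so the 10 libraries were 10 groups of 1. The study asked what p53 does to mRNA levels and to translation, here in a single line that divides before treatment. With single libraries no difference could be checked against replicates and none was tested. Errors are counting errors from recovered reads, and they leave out all variation between cultures and preparations.

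Condensin compacts and resolves chromosomes for mitosis. SMC2 and SMC4 are ATPases that form the arms of the ring in both condensin I and condensin II. Condensin I adds NCAPD2, NCAPG and NCAPH, and condensin II adds NCAPD3, NCAPG2 and NCAPH2. NCAPH and NCAPH2 are the kleisins, which close the ring, and the D and G subunits are HEAT-repeat proteins that bind them. Condensin II resides in the nucleus through the cell cycle, whereas condensin I meets chromosomes after the nuclear envelope breaks down. Cohesin is built in the same way from SMC1A, SMC3, the kleisin RAD21 and STAG1 or STAG2. It holds sister chromatids together until anaphase and also forms chromatin loops in interphase, so cells that do not divide use it too.

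RNA-Seq libraries held 23845558 to 27554287 recovered reads and Ribo-Seq libraries 7744900 to 14460726, with the lowest total at 19 h. RNA of CDKN1A, the gene of the cell cycle inhibitor p21, was at 68.6 FPKM before and 1204 and 1316 FPKM after 6 and 19 h. MDM2, whose product p53 induces, went from 14.9 to 254 and 259 FPKM. All 10 fibroblast markers examined were in the RNA-Seq table, with a sum of 9931 to 13319 FPKM across libraries. Of 4 endothelial markers, VWF alone was listed, at 0.156 FPKM or less. Of the leukocyte markers PTPRC stayed at or below 0.246 FPKM, and CD68, listed at 62.9 FPKM in the control, made up nearly all of that list's sum of 61.5 to 86.6 FPKM. CDH1, an epithelial marker, was at 0.025 FPKM or less, whereas KRT18 of the same list was at 293 FPKM in the control.

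The promoter sequences are shown because the condensin genes moved together over the time course, as described further on, and many genes of late cell cycle phases carry short shared elements near their start. They came from RefSeq, build GRCh38.p14, which is not the hg19 build of the deposited values. Of the 10 genes 9 matched by symbol, with 13 promoters in all, since 4 genes have 2 listed starts. NCAPH2 was not matched. Each window of 300 bases, 250 before the start and 50 after, was searched on both strands for TTTGAA and TTCGAA, known as cell cycle gene homology regions, for CCAAT, and for TTTCCCGC, TTTGGCGC, TTTCGCGC and TTTGCCGC, forms of the E2F site. The 200 bases just before the start are printed 5′ to 3′ on the strand of the gene for NCAPD2 (chr12:6493902-6494101, plus strand), NCAPG (chr4:17810779-17810978, plus strand), NCAPH (chr2:96335566-96335765, plus strand) and, from cohesin, SMC3 (chr10:110567495-110567694, plus strand). No other annotated gene reaches into these 4 windows. Capitals mark letters that were searched, and a match on the other strand reads as TTCAAA or ATTGG.
NCAPD2: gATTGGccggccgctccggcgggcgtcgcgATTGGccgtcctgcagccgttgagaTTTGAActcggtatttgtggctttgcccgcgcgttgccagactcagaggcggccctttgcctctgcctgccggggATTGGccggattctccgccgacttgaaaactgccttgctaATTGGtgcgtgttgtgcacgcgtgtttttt
NCAPG: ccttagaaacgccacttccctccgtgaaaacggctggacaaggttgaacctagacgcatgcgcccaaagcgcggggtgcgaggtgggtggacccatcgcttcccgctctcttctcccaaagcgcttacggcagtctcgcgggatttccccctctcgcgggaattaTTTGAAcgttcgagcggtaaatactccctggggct
NCAPH: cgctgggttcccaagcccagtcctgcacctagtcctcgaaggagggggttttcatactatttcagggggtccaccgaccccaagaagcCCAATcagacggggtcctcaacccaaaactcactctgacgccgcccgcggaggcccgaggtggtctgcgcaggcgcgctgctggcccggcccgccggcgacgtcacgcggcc
SMC3: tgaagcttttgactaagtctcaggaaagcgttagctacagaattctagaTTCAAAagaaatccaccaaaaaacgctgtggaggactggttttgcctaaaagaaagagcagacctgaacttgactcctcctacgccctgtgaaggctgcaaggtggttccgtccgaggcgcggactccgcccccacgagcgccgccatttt

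The 7 matched condensin genes had 10 promoters and the cohesin SMC genes 3. TTTGAA was in 6 of the 10, each of a different gene, and in 1 of the 3, that of SMC3, while TTCGAA was in none of them. Over all 35116 promoters of this length, 15.2% held TTTGAA and 1.45% held TTCGAA. The letters began 145 bases before the start in NCAPD2, 35 before it in NCAPG, 75 in SMC4, 151 in SMC3 and 3 in SMC2, while in NCAPG2 they began after the start. NCAPD3 held them 3 bases before the second of its listed starts. CCAAT was in 3 of the 10 condensin promoters (of NCAPD2, NCAPH and NCAPD3), or 30%, and in 0 of the 3 cohesin SMC promoters, against 34.6% of all promoters. The NCAPD2 window held it 4 times, at 199, 170, 70 and 30 bases before the start, each on the other strand. An E2F form, TTTCCCGC, was found in 1 promoter of NCAPD3 and 1 of SMC1A, and 3.31% of all promoters held some form of it. These matches are letters in a window and no binding was measured.

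RNA of all 8 condensin subunits was lower than in the control library at each time, and at 6 and 19 h all 8 were past 2-fold. At 2 h the counting intervals of NCAPH and NCAPH2 included no change. SMC1A and SMC3 were lower too, by less than any condensin subunit at 6 and 19 h. The kleisin NCAPH and the HEAT-repeat subunit NCAPG had the lowest remaining shares, 1.09% and 2.65% of the control level at 19 h, whereas SMC3 kept 38.3%. Fewer cells in a phase that expresses a gene and less of its RNA per cell cannot be told apart in such bulk samples.

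**Figure D1:**
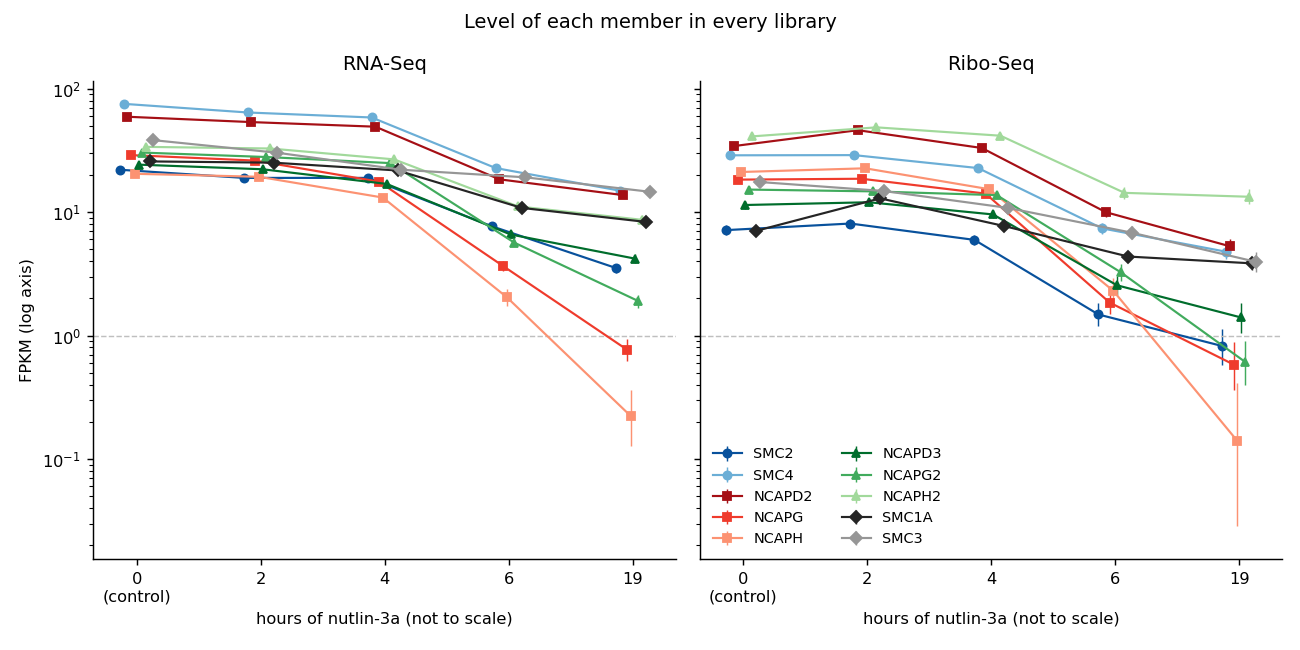
FPKM of the 10 genes (log axis) in the RNA-Seq libraries on the left and the Ribo-Seq libraries on the right, against hours of nutlin-3a, with 1 library per point and bars for 95% counting intervals. Circles are SMC2 and SMC4, squares condensin I, triangles condensin II and diamonds cohesin. All 10 genes lie lower at 6 h than at 4 h in both panels, and SMC3 RNA was at 57.7% of control by 4 h. NCAPH ends lowest in the RNA-Seq panel, at 0.222 FPKM, and Ribo-Seq levels are to be read within a gene over time. The dashed line is the floor of 1 FPKM.

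Among the shared condensin ATPases, SMC4 had the highest RNA level of the 10 genes in the control. SMC4 was at 75.2 FPKM in the control and at 64.0, 58.3, 22.7 and 14.9 FPKM at 2, 4, 6 and 19 h. Its partner SMC2 was at 22.0, 18.9, 18.9, 7.66 and 3.52 FPKM in the same order. Both were at their lowest at 19 h, and the largest step of SMC4 lay between 4 and 6 h. The log2 change at 19 h was -2.34 ± 0.0345 (counting SE) for SMC4 and -2.64 ± 0.0668 for SMC2. These SMC proteins form a dimer, yet SMC4 RNA was 3.42 times that of SMC2 in the control (95% counting interval 3.28 to 3.56). The factor was 2.96 at 6 h (2.77 to 3.16) and 4.23 at 19 h (3.85 to 4.65).

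Condensin I held both the deepest and one of the shallowest changes of the condensin genes. NCAPH, its kleisin, was at 20.4 FPKM in the control library and at 19.3, 13.1, 2.04 and 0.222 FPKM after 2, 4, 6 and 19 h. NCAPG was at 28.9, 26.1, 17.6, 3.65 and 0.766 FPKM in that order. NCAPD2, the other HEAT-repeat subunit, began higher and stayed higher, at 59.1, 53.5, 49.1, 18.4 and 13.7 FPKM. NCAPH and NCAPG thus passed below 1 FPKM at 19 h and NCAPD2 did not.

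Set against the control, NCAPH was at 64.5% after 4 h, at 9.99% at 6 h (95% counting interval 8.40 to 11.8) and at 1.09% at 19 h (0.622 to 1.78), the last from 16 reads. NCAPG was at 60.9% at 4 h, 12.6% at 6 h (11.4 to 13.9) and 2.65% at 19 h (2.13 to 3.26). With values floored at 1 FPKM the log2 changes at 19 h were -4.85 for NCAPG and -4.35 for NCAPH. Without the floor they were -5.24 and -6.52, so the order of the pair depends on the floor. NCAPD2 stood at 23.1% at 19 h (22.0 to 24.3). Of the 7015 tested genes 32, NCAPG included, had a floored RNA change as low as that of NCAPG at 19 h.

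Condensin II subunits also differed from each other, over a narrower range than those of condensin I, 6.26% to 25.7% of control at 19 h against 1.09% to 23.1%. Its G subunit NCAPG2 was at 30.3 FPKM in the control and at 27.9, 24.9, 5.65 and 1.90 FPKM at 2, 4, 6 and 19 h. NCAPD3 was at 24.2, 22.2, 16.9, 6.58 and 4.20 FPKM, and the kleisin NCAPH2 at 33.7, 32.7, 26.7, 11.1 and 8.65 FPKM. NCAPG2 was the lowest of the set at 19 h, with 6.26% of control left (5.50 to 7.10), against 17.3% for NCAPD3 and 25.7% for NCAPH2 (23.1 to 28.5). Of the 8 condensin subunits NCAPH2 kept the largest share of its RNA.

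SMC1A and SMC3 of cohesin followed courses unlike each other. SMC1A was at 25.7 FPKM in the control and at 25.1, 21.7, 10.8 and 8.32 FPKM at 2, 4, 6 and 19 h. SMC3 was at 38.2, 30.2, 22.0, 19.1 and 14.6 FPKM. SMC1A had its largest step between 4 and 6 h, as did most condensin genes. For NCAPG, NCAPH and SMC2 the counting interval of that step overlapped that of the step from 6 to 19 h. SMC3, in contrast, was already at 79.2% of control at 2 h (75.6 to 83.0) and at 57.7% at 4 h (54.7 to 60.8). Those were the lowest shares of the 10 genes at both times. The SMC3 interval overlapped those of SMC2 (81.7 to 90.4) and SMC4 (82.8 to 87.6) at 2 h. At 4 h it overlapped those of NCAPG (57.6 to 64.4) and NCAPH (59.2 to 70.2). Between 4 and 6 h SMC3 moved by a factor of 0.870 (0.819 to 0.923), and SMC1A by 0.50 (0.478 to 0.524). The SMC3 to SMC1A ratio of RNA was 1.49 in the control, 1.02 at 4 h and 1.76 at 6 and at 19 h.

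For condensin against the cohesin SMC genes, the median log2 RNA change of the 8 condensin subunits was -1.81 at 6 h (range -3.32 to -1.52), against -1.24 for SMC1A and a 50.2% share of control left for SMC3. At 19 h it was -2.59 (-4.85 to -1.96), against -1.63 and -1.38. The groups did not overlap at either time, and the nearest members were SMC2 and SMC1A at 6 h and NCAPH2 and SMC1A at 19 h. NCAPH2 and SMC1A kept 25.7% and 32.4% of their RNA at 19 h, with counting intervals of 23.1 to 28.5 and 30.8 to 34.1. Past 2-fold lower were 8 of 8 condensin genes at 6 h and again at 19 h, and of SMC1A and SMC3 1 at 6 h and both at 19 h. At 6 h SMC3 missed the threshold by a margin within its counting interval, 47.6 to 52.9% of control. Of all 7015 tested genes 5.39% were that much lower at 6 h and 7.1% at 19 h, and 2.49% were that much higher at 19 h. Over all tested genes the median log2 RNA change was -0.00239 at 6 h and -0.0671 at 19 h. With values floored at 5 FPKM the condensin median lay 0.70 below the mean of SMC1A and SMC3 at 19 h, against 1.08 with the floor at 1 FPKM.

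**Figure D2:**
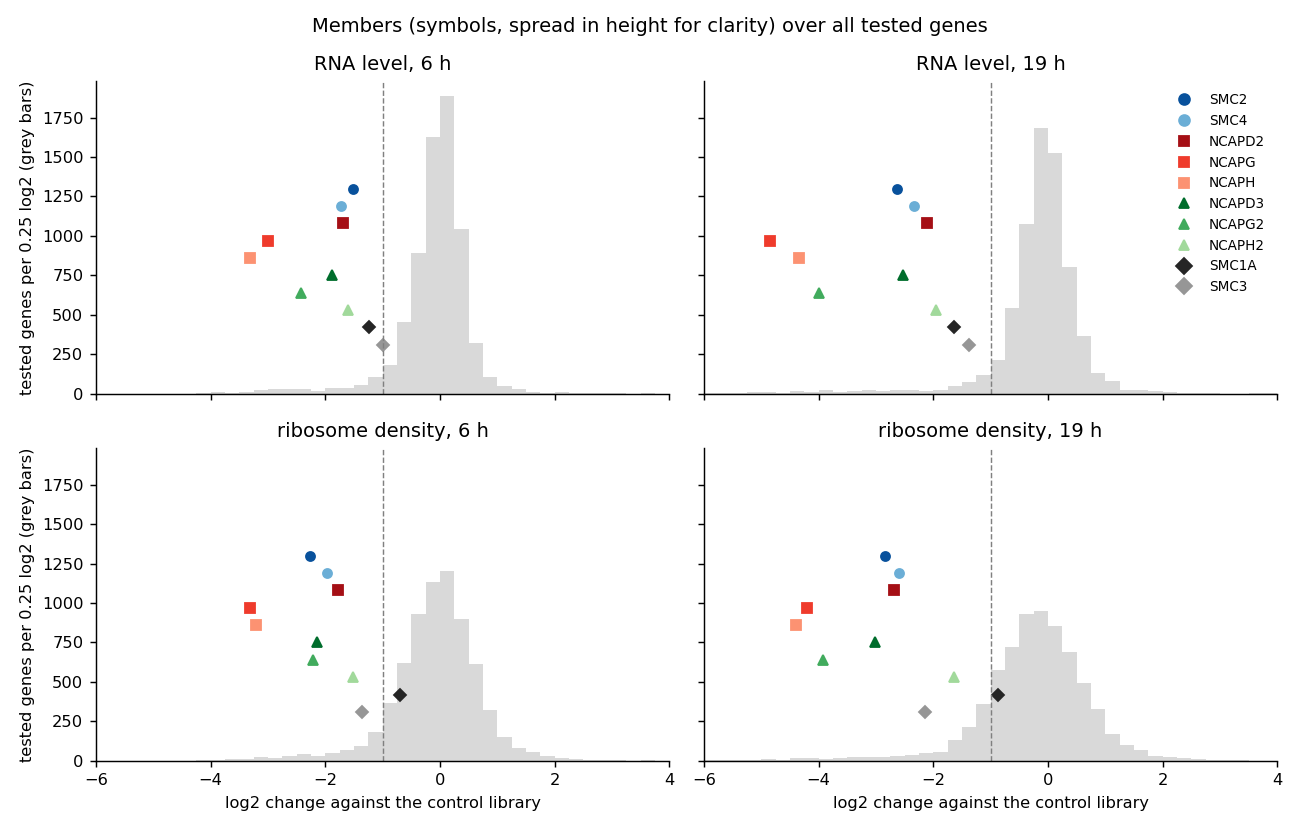
Log2 change against the control library (x) for the 7015 tested genes, as grey bars counting genes per 0.25 log2 (y), with the 10 genes as symbols whose height has no meaning. Upper panels show RNA level and lower panels ribosome density, at 6 h (left) and 19 h (right), and the dashed line marks 2-fold lower. All condensin symbols lie left of that line in the 4 panels, from -1.52 to -4.85, while SMC1A density stays right of it at -0.69 and -0.87.

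At 2 and 4 h none of the 10 genes was past 2-fold. Of all tested genes 0.0143% were that much lower in RNA at 2 h and 0.684% at 4 h. The condensin median was -0.13 at 2 h and -0.35 at 4 h, against -0.0453 and -0.0737 for all tested genes. NCAPG (-0.72 ± 0.0411), NCAPH (-0.63 ± 0.0624) and NCAPD3 (-0.52 ± 0.0413) had moved farthest among condensin genes at 4 h. SMC3 was at -0.79 ± 0.0387, with a counting interval that overlapped those of NCAPG and NCAPH. From 4 to 6 h RNA of the 8 condensin genes dropped to between 0.155 (NCAPH) and 0.415 (NCAPH2) of its 4 h level. From 6 to 19 h the factor ranged from 0.109 (NCAPH) to 0.782 (NCAPH2), and every one of these counting intervals lay below 1. For NCAPG the factors of both steps were alike, 0.207 (0.187 to 0.229) and 0.210 (0.166 to 0.263), and the intervals also overlapped for NCAPH, 0.130 to 0.184 and 0.0609 to 0.183, and for SMC2, 0.378 to 0.433 and 0.415 to 0.509. For the other 5 the earlier step was the larger. Whether the 4 and 6 h libraries shared a sequencing run is not known.

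Ribosome density, the Ribo-Seq FPKM of a gene, was also lower for all 8 condensin genes at 6 and 19 h. NCAPH density was 21.1 FPKM in the control and 22.6, 15.3, 2.30 and 0.140 FPKM over the time course, with 3 reads left at 19 h. That is 0.664% of control, with a counting interval from 0.137 to 1.95. NCAPG was at 18.3, 18.6, 14.1, 1.85 and 0.582 FPKM, and NCAPG2 at 15.2, 14.7, 13.7, 3.25 and 0.614 FPKM. These 3 genes had the lowest remaining shares in Ribo-Seq as in RNA-Seq.

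NCAPD2 density was 34.2 FPKM in the control and 46.0, 33.0, 9.97 and 5.28 FPKM in the treated libraries, highest at 2 h. SMC4 was at 28.8, 28.9, 22.7, 7.37 and 4.77 FPKM, and SMC2 at 7.14, 8.07, 5.95, 1.48 and 0.821 FPKM. NCAPD3 stood at 11.4, 12.0, 9.56, 2.55 and 1.40 FPKM. NCAPH2 was at 41, 48.5, 41.5, 14.3 and 13.3 FPKM, and its 19 h value was within counting error of its 6 h value (factor 0.929, 0.773 to 1.12).

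The cohesin pair parted in Ribo-Seq. SMC1A was at 7.04 FPKM in the control and 12.9, 7.70, 4.36 and 3.84 FPKM in order of time, and so kept 54.6% of its density at 19 h (47.6 to 62.5). SMC3 was at 17.5, 14.8, 10.8, 6.80 and 3.95 FPKM and kept 22.6% (18.6 to 27.3). The SMC3 to SMC1A ratio of density was 2.48 in the control (2.25 to 2.74) and 1.03 at 19 h (0.829 to 1.27). SMC1A RNA was lower than its control by more than SMC3 RNA at 19 h, and SMC1A density by less than SMC3 density. Removing the trend of density change with transcript length took SMC1A at 19 h from -0.87 to -1.19, past 2-fold, and its transcript of 9784 nt is the longest of the set.

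The median log2 density change of condensin was -2.19 at 6 h (range -3.31 to -1.52) and -2.93 at 19 h (-4.40 to -1.63). SMC1A and SMC3 were at -0.69 and -1.36 at 6 h and at -0.87 and -2.14 at 19 h. At 6 h the groups did not overlap, and at 19 h they did, since NCAPH2 (-1.63) lay above SMC3. All 8 condensin genes and, of the cohesin pair, SMC3 were past 2-fold lower at both times, against 8.04% of all tested genes at 6 h and 14.9% at 19 h. With the floor at 5 FPKM 7 of the 8 condensin genes were past 2-fold lower in density at each of these times, and a cut-off scaled to the local SD of genes of like level called 7 of 8 at 19 h. Of all tested genes 5.86% and 11.2% were called with that floor, and 5.17% with that cut-off. No member was past 2-fold at 2 or 4 h, where the shares of all tested genes were 0.128% and 0.527%. The density of all tested genes had a median change of 0.102 at 4 h and -0.191 at 19 h, so changes at these times sit on a small shift of the whole assay.

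**Figure D3:**
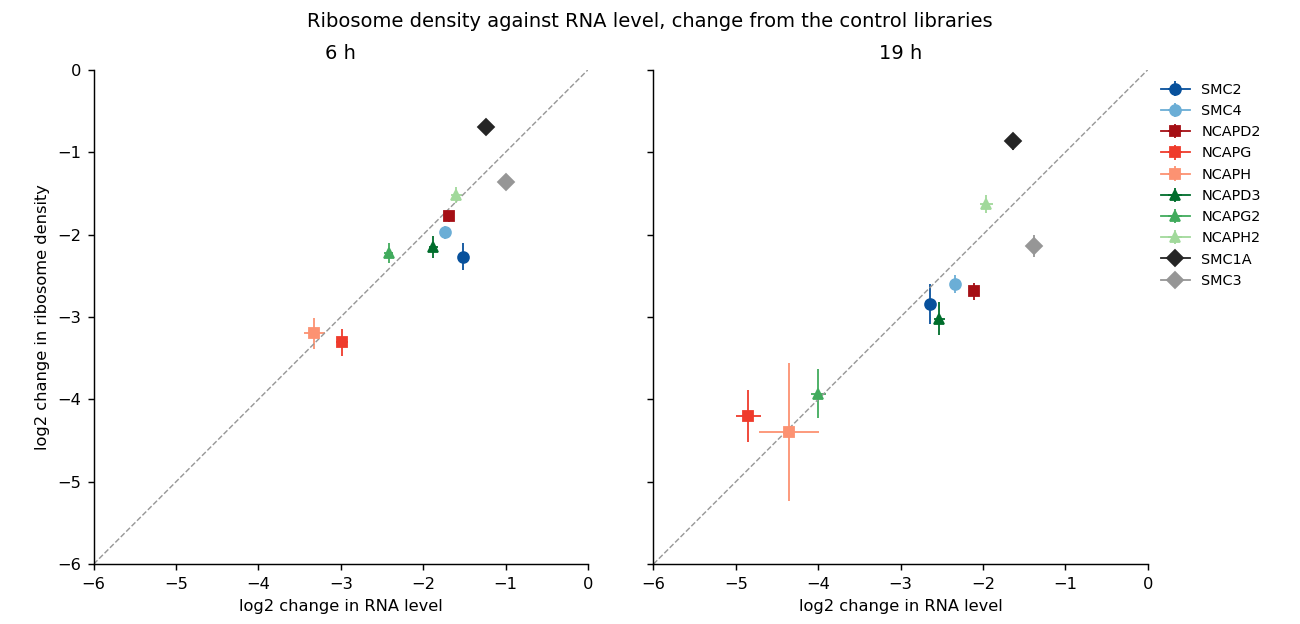
Log2 change in ribosome density (y) against log2 change in RNA level (x) at 6 h (left) and 19 h (right), with values floored at 1 FPKM and counting SEs of the values before flooring as bars. The dashed diagonal marks equal change in both assays, and the condensin symbols farthest from it are SMC2 at 6 h (-0.75) and NCAPG at 19 h (0.66). SMC1A lies 0.75 above it and SMC3 0.76 below it at 19 h.

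Translational efficiency (TE) is the log2 ratio of Ribo-Seq to RNA-Seq FPKM, so a gene on the diagonal of that plot has no TE change. None of the 10 genes was past 2-fold in TE at any time, against 1.2%, 0.998%, 5.74% and 6.14% of all tested genes in either direction at 2, 4, 6 and 19 h. The condensin medians were 0.22, 0.20, -0.16 and -0.12 in that order, where the medians of all tested genes were 0.0449, 0.179, 0.00212 and -0.0666. The 19 h median depends on the floor. Without it SMC2 was at -0.48, NCAPG2 at -0.63 and NCAPH at -0.71, against -0.19, 0.07 and -0.05 with it. The condensin median minus the mean of SMC1A and SMC3 was then -0.48 at 19 h, against -0.12 with the floor. SMC2 had the lowest condensin value at 6 h, -0.75 ± 0.173, and with the floor NCAPD2 had the lowest at 19 h, -0.58 ± 0.107. NCAPG was at 0.66 ± 0.352 at 19 h with the floor and at 0.26 without it. For NCAPH at 19 h, -0.05 ± 0.910, the 3 footprint reads allow no statement.

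SMC1A TE was 0.90 ± 0.0680, 0.37 ± 0.0723, 0.55 ± 0.0920 and 0.75 ± 0.105 in order of time. With the 2 h libraries as the baseline in place of the control its sign turned, to -0.53, -0.35 and -0.15 at 4, 6 and 19 h. With the trend on transcript length removed it was 0.23 at 6 h and 0.46 at 19 h. SMC3 TE was 0.09 ± 0.0808, 0.10 ± 0.0848, -0.37 ± 0.107 and -0.76 ± 0.144 at the 4 times, and it was -0.85 at 19 h against the 2 h baseline. The same baseline took SMC2 at 6 h and NCAPD2 at 19 h to -1.15 each, past 2-fold.

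Condensin I and II differ in 3 subunits that pair by role, and the pairs moved apart unequally. The RNA ratio of the kleisins, NCAPH over NCAPH2, began at 0.605 and was 0.591 and 0.493 after 2 and 4 h. It was 0.184 at 6 h (0.153 to 0.220) and 0.0256 at 19 h (0.0146 to 0.0422). In Ribo-Seq the same ratio was 0.514 in the control, 0.161 at 6 h and 0.0106 at 19 h (0.00216 to 0.0313). Since transcript length divides the footprints, a Ribo-Seq ratio is read here for its change over time and not for its size. The ratio of the G subunits, NCAPG over NCAPG2, was 0.953 in control RNA and 0.403 at 19 h (0.315 to 0.513), and in Ribo-Seq 1.21 and 0.948 (0.504 to 1.76). For the D subunits the direction was the other way, with NCAPD2 over NCAPD3 at 2.44 in control RNA (2.34 to 2.55) and 3.25 at 19 h (2.96 to 3.58). The kleisin of condensin I thus had the widest departure from its counterpart, and the D subunit of condensin I kept slightly more RNA than that of condensin II.

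**Figure D4:**
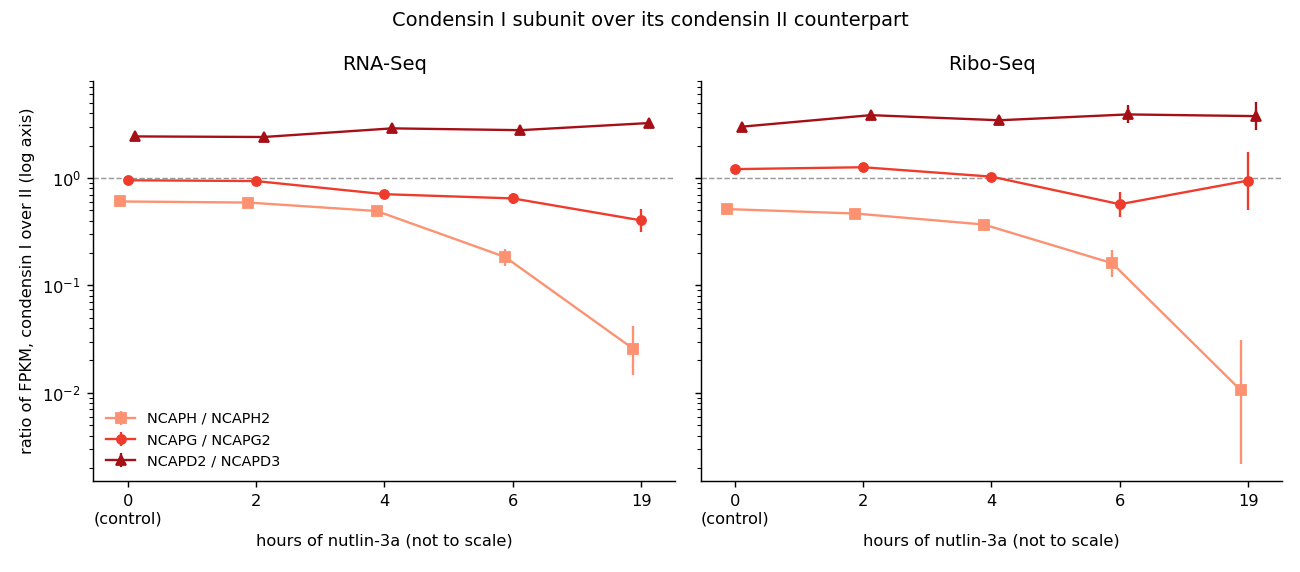
Ratio of FPKM of each condensin I subunit to its condensin II counterpart (log axis) against hours of nutlin-3a, for RNA-Seq (left) and Ribo-Seq (right), with 95% counting intervals as bars and a dashed line at equal FPKM, which in Ribo-Seq does not mark equal amounts. NCAPH over NCAPH2 drops from 0.605 to 0.0256 in RNA-Seq, while NCAPD2 over NCAPD3 goes from 2.44 to 3.25 there.

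In order of RNA level per length in the control, SMC4 came first, then NCAPD2, SMC3, NCAPH2, NCAPG2, NCAPG, SMC1A, NCAPD3, SMC2 and NCAPH, from 75.2 to 20.4 FPKM. Each neighbour in that order differed by more than its 95% counting interval. At 19 h the order was SMC4, SMC3, NCAPD2, NCAPH2, SMC1A, NCAPD3, SMC2, NCAPG2, NCAPG and NCAPH. SMC4 and SMC3 were then within counting error of each other, 14.9 and 14.6 FPKM, as were NCAPH2 and SMC1A. The SMC4 to SMC3 ratio of RNA was 1.97 in the control (1.90 to 2.05), 2.65 at 4 h (2.53 to 2.78) and 1.02 at 19 h (0.952 to 1.09). The range over the 10 genes widened, from 20.4 to 75.2 FPKM in the control to 0.222 to 14.9 FPKM at 19 h. Ribo-Seq levels are not ranked between genes, because for these genes the deposited values divide footprints by the length of the whole transcript.

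The remaining core subunits of cohesin split. RAD21, the kleisin, was at 109 FPKM in control RNA and at 97.9, 89.2, 47.5 and 36.3 FPKM at 2, 4, 6 and 19 h, a log2 change of -1.58 at 19 h that lies between SMC3 and SMC1A. STAG1, at 23.6 FPKM in the control and 16.2 at 19 h (-0.54), and STAG2, at 22.9 and 19.2 FPKM (-0.25), were not past 2-fold. Density at 19 h was -2.03 for RAD21, -0.94 for STAG1 and -0.85 for STAG2. The germ line subunits STAG3, REC8 and RAD21L1 did not exceed 1.34 FPKM in RNA, the control value of REC8.

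Of 8 genes for cohesin loading, release and boundaries 5 were tested, and none was past 2-fold in RNA at 6 or 19 h. Their medians were -0.14 and -0.33, and of all tested genes 5.39% and 7.1% were past 2-fold lower. In density at 19 h 1 of the 5 was past 2-fold lower, against 14.9% of all tested genes. It was WAPAL, which releases cohesin, at -1.21. Among those not tested for low values, PDS5B went from 9.04 to 4.06 FPKM in RNA at 19 h (-1.15, past 2-fold lower). NIPBL went from 10.5 to 9.11 FPKM and ESCO1 from 2.65 to 3.69. Of 6 genes that set or end cohesion from S phase to mitosis 3 were tested. Against 5.39% and 7.1% of all tested genes, all 3 were past 2-fold lower in RNA at 6 and at 19 h. They were CDCA5 (sororin, which protects cohesion), from 19.1 FPKM in the control to 0.341 at 19 h, ESPL1 (separase, which cleaves RAD21), from 11.4 to 0.243, and PTTG1 (securin, the inhibitor of separase), from 72.0 to 11.7. The other 3 went from 8.01 to 0.186 FPKM (ESCO2, an acetyltransferase of SMC3), from 6.82 to 0.082 (SGOL1) and from 13.9 to 0.683 (SGOL2), the last pair being shugoshins that shield cohesin at centromeres.

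The SMC5-SMC6 complex is the remaining SMC complex, and its list of 8 here also holds SMCHD1. Of 6 tested genes NSMCE4A (-1.35, from 15.4 to 6.03 FPKM) and SMCHD1 (-1.09, from 16.6 to 7.79 FPKM) were past 2-fold lower in RNA at 19 h. The median was -0.37, and 7.1% of all tested genes were that much lower. SMC5 was at 12.9 FPKM in the control and 9.09 at 19 h (-0.50). Its partner SMC6, not tested for its low footprint level, went from 10.2 to 5.18 FPKM in RNA (-0.98). Genes that act on mitotic chromosomes beside condensin had a lower median than condensin. Of the 12 listed 8 were tested and all 8 were past 2-fold lower at 6 and 19 h, with medians of -2.95 and -5.28. The shares of all tested genes were 5.39% and 7.1%. MKI67, which coats mitotic chromosomes, was at -6.28 at 19 h, AURKB of the chromosomal passenger complex at -5.27 and its partners CDCA8, BIRC5 and INCENP at -5.60, -4.86 and -3.16. The mitotic kinases CDK1 and PLK1 were at -5.63 and -5.29 and CCNB1, the cyclin of CDK1, at -4.71. MKI67, AURKB, CDCA8 and CDK1 were below 1 FPKM at 19 h, so their floored changes are lower limits of the drop. The order of the mitotic chromosome genes and their median at 19 h therefore depend on the floor. KIF4A, a motor on chromosome arms listed in RNA-Seq alone, went from 15.4 to 0.344 FPKM. MCPH1, not tested for its low footprint level, did not fall in RNA, at 4.97 FPKM in the control and 5.5 at 19 h. These lists were drawn up with the response of cell cycle genes in these data known, so their counts describe and do not test it.

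**Figure D5:**
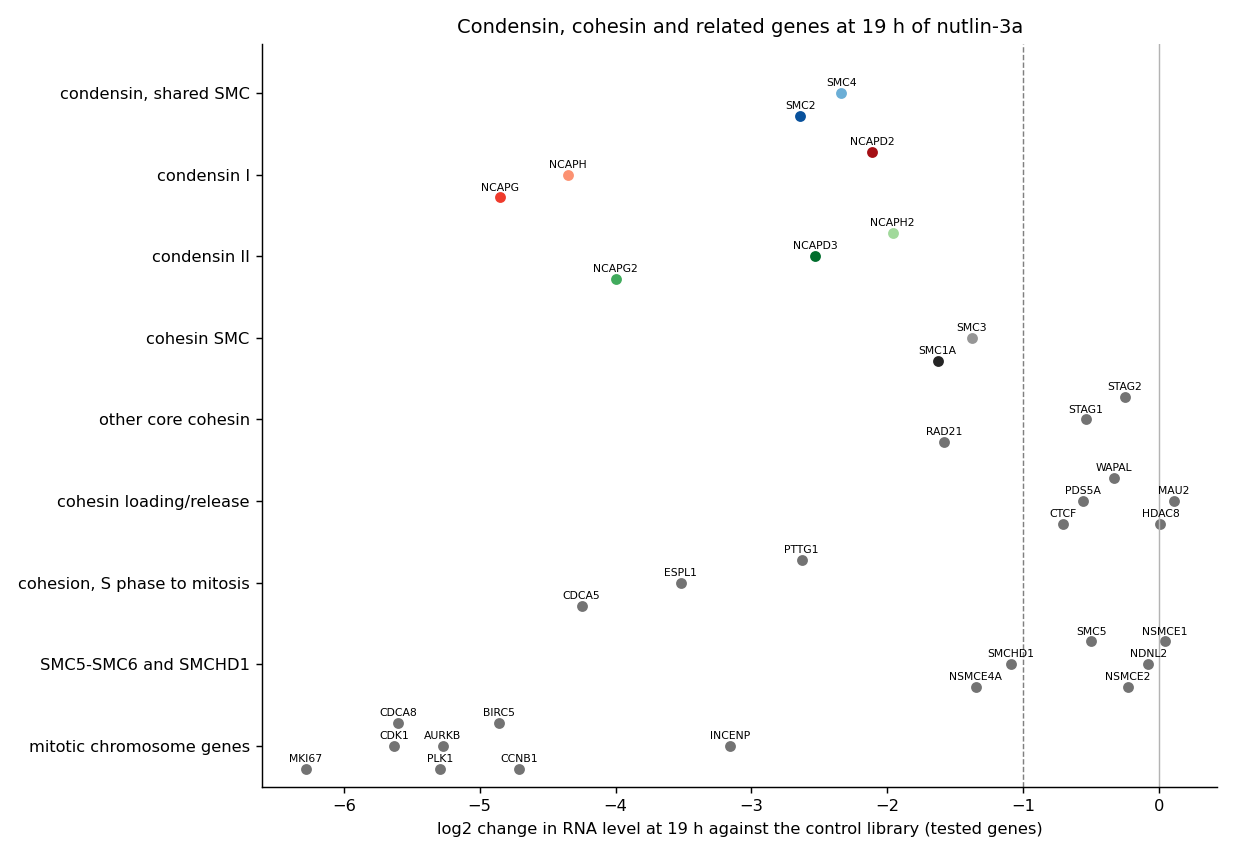
Log2 change in RNA level at 19 h against the control library (x) for each tested gene of 9 lists (rows), with the height within a row only separating the labels. The solid line is no change and the dashed line 2-fold lower, and values were floored at 1 FPKM. Condensin lies from -1.96 to -4.85, SMC1A, SMC3 and RAD21 from -1.38 to -1.63, the tested loading and release genes from -0.71 to 0.11, and the mitotic chromosome genes from -3.16 to -6.28.

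Genes whose course was nearest to the mean course of each set were found by the root mean square difference over 8 log2 changes, RNA and density at the 4 times. Members spread around such a mean. RNA at 19 h ran from -4.85 to -2.11 over the condensin I subunits, and density from -2.14 to -0.87 over SMC1A and SMC3. A gene near the mean therefore need not resemble any member. Nearest to the mean of the 5 condensin I subunits were TMPO at 0.193, TIMELESS at 0.202, TMEM48 at 0.257, MIS18A at 0.269 and RFC2 at 0.270. Nearest to the mean of NCAPD3, NCAPG2 and NCAPH2 were FANCG at 0.176, PHF19 at 0.177, APOBEC3B at 0.207, RFC5 at 0.216 and POLA2 at 0.229. For the mean of SMC1A and SMC3 they were NUP155 at 0.120, PARP1 and YWHAH at 0.124 each, ATRIP at 0.137 and ACD at 0.143. TMPO RNA was at -3.70 and FANCG RNA at -3.04 at 19 h, against -1.62 for NUP155.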

How the data were processed

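BJ cells were profiled by RNA-Seq and Ribo-Seq in an untreated control and at 2, 4, 6 and 19 h of nutlin-3a, with 1 library per condition and assay. The labels gave each library its group and time. The values deposited by the authors are FPKM with 3 decimals, as 2 tables of 5 columns, and no per-sample column was left unused. Per the study's methods, reads were aligned with Bowtie to 1 protein-coding transcript per gene of Ensembl release 65, and only unique hits were kept. Reads that a paralog shares were therefore lost. The labels name hg19 as the build and give no version of Bowtie. Table names decided the assay, and histone transcripts, which poly(A) selection loses, served as a check. In the control of the table taken as RNA-Seq 21 of 28 were below 1 FPKM, against 0 of 28 in the other table's control. The methods describe footprints in the coding sequence, while the column names say total, so which reads entered the Ribo-Seq values was not settled. The study describes an effect of sequencing runs and set each condition against a control from its own run. Runs are not given in the labels. For these cells the study lists nutlin-3a at 6 and 19 h, so whether the 2 and 4 h libraries shared a run with the others is not known.

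Whole reads, transcript lengths and library totals were recovered from the spacing of FPKM values for 11231 of 11258 transcripts (99.8%), with 95% of values within 0.0507 reads of a whole number, and for all 10 genes described. The procedure was tested on simulated data. Reads gave counting SEs on the log2 scale and exact binomial (Clopper-Pearson) 95% intervals of ratios. PCR copies were not distinguishable, so these cover counting error only. Values were floored at 1 FPKM, log2 changes were taken to the control of the same assay, and TE is log2 of Ribo-Seq over RNA-Seq FPKM. Shares of control and ratios use the values as deposited. A gene was tested if it reached 5 FPKM somewhere in each assay (7015 genes), a filter that a gene high in 1 library alone can pass. A call means past 2-fold. No p-value was computed, since each group held 1 library.

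The genes and lists were chosen with earlier results of these data known. Named were all 10 genes, every gene of the related complexes past 2-fold in RNA at 19 h with the remaining core cohesin subunits, and the 5 nearest profiles per set. MDM2, CDKN1A, the markers, SMC5, WAPAL and genes measured below the filter or in RNA-Seq alone were named outside that rule, after their values were seen. SMC1B, TOP2A and TOP2B, which the lists also hold, are not analysed here. Promoters came from RefSeq (GRCh38.p14). Python 3.11, pandas 2.3.3, NumPy 2.4.6, SciPy 1.17.1 and matplotlib 3.10.9 were used. In all 11 alternatives were tried.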

Additional observations from a re-analysis of the deposited data

Results flagged for a closer look

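For 4 of the 10 genes ribosome density was higher than control at 2 h and lower at 6 and 19 h, beyond the 95% counting interval each time. With 1 library each, these differences between time points were not tested. How many of all tested genes had such a course was not counted, so this number has no background to be read against. SMC1A density was 0.87 ± 0.0630 (log2, counting SE) at 2 h, -0.69 at 6 h and -0.87 at 19 h, and 6821 of 7015 tested genes were at or below its 2 h value. NCAPD2 was 0.43 ± 0.0403 at 2 h, -1.78 at 6 h and -2.69 at 19 h. NCAPH2 was 0.24 ± 0.0630 at 2 h, -1.52 at 6 h and -1.63 at 19 h. SMC2 was 0.18 ± 0.0882 at 2 h, only just beyond its counting interval, -0.26 at 4 h, -2.27 at 6 h and -2.84 at 19 h. RNA of these genes at 2 h was -0.03, -0.14, -0.04 and -0.22, in the same order. Of the tested genes 88%, 75.2% and 69.4% were at or below the 2 h density change of NCAPD2, NCAPH2 and SMC2. Over all tested genes density at 2 h rose with transcript length, by 0.149 per doubling. With that trend removed the 2 h values were 0.58 for SMC1A, 0.26 for NCAPD2, 0.29 for NCAPH2 and -0.01 for SMC2. What part the length trend or the single library has in them was not tested.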

How the results depend on the processing

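Each alternative changed 1 choice. Of 294 group results, counts and medians, 260 stayed within their limits, 33 moved and 1 reversed. Part of the 260 could not move. All members already passed the filter on low values, so dropping it left their counts fixed. A median subtracted from every gene cancels in a difference between groups. Removing the length trend left the RNA counts of all tested genes unchanged. A condensin count of 7 in place of 8 was taken as within limits. Of 690 values of single genes 136 moved beyond their 95% counting interval. No value past 2-fold changed sign, but 29 under 2-fold did, among them SMC1A TE with the 2 h baseline. The difference between the condensin median and the mean of SMC1A and SMC3 was -0.69 and -1.08 in RNA at 6 and 19 h, -1.16 and -1.42 in density, and -0.26 and -0.12 in TE. At 6 h in density it was -0.90 with a pseudocount of 1 FPKM and -0.88 with the 2 h library as baseline. With a floor at 5 FPKM it was -0.70 in RNA at 19 h, -0.76 and -0.60 in density at 6 and 19 h, and in TE at 6 h it reversed to 0.18. By construction that floor removes changes below 5 FPKM. In TE at 19 h the difference was 0.14 with that floor, 0.14 with the 2 h baseline and -0.48 without a floor. These values stayed within the limits (counting error 0.288) but differed in sign.

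Of SMC1A and SMC3, 2 were past 2-fold lower in density at 6 and 19 h against the 2 h baseline, and 2 at 19 h without the length trend. Of all tested genes 7.17% and 12% were that much lower with this baseline, and 14.6% without the trend. The 2 h baseline put 1 condensin gene past 2-fold lower in TE at 6 h and 1 at 19 h, where the shares of all tested genes were 1.3% and 2.11%. A mean of at least 20 FPKM left 2 condensin genes, with 2 called in RNA and density at 6 and 19 h, and 0 cohesin genes. Of all genes that passed this filter 3.68% and 5.92% were called lower in RNA at 6 and 19 h, and 6.16% and 14.7% in density. At 1.5-fold, 2 condensin genes and 1 cohesin gene were called in RNA at 4 h, 1 cohesin gene in density at 4 h, 2 cohesin genes in RNA at 6 h and in density at 6 and 19 h, 1 condensin gene in TE at 6 h and 1 cohesin gene in TE at 19 h. The shares of all tested genes that much lower were 3.58% and 11.6% in RNA at 4 and 6 h. In density they were 3.26%, 19% and 29.8% at 4, 6 and 19 h, and in TE 12.3% and 15.6% at 6 and 19 h. At 4-fold, 3 condensin genes were called in RNA and 5 in density at 6 h and 7 in each at 19 h, with 0 cohesin genes in RNA at 6 and 19 h and in density at 6 h. Of all tested genes 2.15% and 3.25% were that much lower in RNA at 6 and 19 h, and 2.47% and 4.06% in density. The sliding cut-off in units of the local SD of genes of like level (window of 500 genes) called 1 cohesin gene in RNA at 4 h and 2 at 6 h, and 7 of 8 condensin genes in density at 19 h. It called 2.72% and 4.92% of all tested genes lower in RNA at 4 and 6 h, and 5.17% in density at 19 h. The floor at 5 FPKM left 7 of 8 in density at 6 and at 19 h, where 5.86% and 11.2% of all tested genes were called. Apart from the floor and filters, the cause of these moves was not tested. Depth limits NCAPH, with 16 and 3 reads at 19 h.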
